A study of Mus musculus with 12 samples.

Results

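Kidneys of mice with chronic kidney disease that were fed on a time restricted schedule (the group CKD TRF) were compared with kidneys of control mice (Control). The members were chosen by their titles, CKD TRF 1 to 4 and Control 1 to 4, which gave 8 of the 12 libraries of the series. The other 4 libraries came from mice with the disease without the schedule (CKD) and are used only beside the results. All 12 were kidneys of C57BL/6 mice, profiled by QuantSeq, which sequences the 3′ ends of polyadenylated transcripts and therefore gives a level per gene with no isoforms. The labels give the disease and the feeding schedule and no other treatment, and no genetic change is named. They do not state how the disease was produced, the hours of feeding, the age or sex of the mice or the hour of sampling. Whether the 4 libraries of a group are 4 animals is not stated either, so the spread that the p-values rest on may be partly technical. No Control library is labelled as time restricted, so the disease and the schedule cannot be told apart in the difference between CKD TRF and Control.

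In chronic kidney disease, tubule cells are injured and lose their transporters and enzymes, immune cells gather between the tubules, and fibroblasts deposit collagen-rich matrix. The proximal tubule, which does most of the reabsorption in the nephron, runs on fatty acid oxidation and is dense in mitochondria. Time restricted feeding limits when food is taken and not necessarily how much, and the time of feeding is known to set the phase of the molecular clock in peripheral tissues. That clock is a loop in which ARNTL and CLOCK switch on the Per, Cry and Nr1d genes, whose products switch the loop off again.

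Levels are given as scaled reads, which were close to CPM (counts scaled to a common total) in size, and changes are differences of log2(scaled reads + 1) with the standard error from limma over 4 libraries per group. The Control libraries held 10990019 to 12811029 recovered reads and the CKD TRF libraries 14145656 to 17209880, without overlap. Sums of scaled reads were 1076773 to 1180101 in Control, 987841 to 1025834 in CKD TRF and 941189 to 978419 in CKD. The mean share of entries above 0 was 67.1% in Control and 69.5% in CKD TRF. Each of these measures differed between Control and CKD TRF with p = 0.0286 (exact permutation test, two-sided, adjusted p = 0.0381). A library listed at 0 could hold up to 3 reads by counting error alone, equal to between 0.255 and 0.306 scaled reads in Control and between 0.179 and 0.215 in CKD TRF. The share of the ribosomal RNA repeat Rn45s was 7.43% ± 2.72 (SD, n = 4) in Control and 11.9% ± 0.974 in CKD TRF (exact permutation test, two-sided, p = 0.0571). Markers of 2 neighbouring tissues moved with the group. The 12 urothelium markers, of the lining of the renal pelvis and bladder, summed to 9.09, 28.4, 12.5 and 14.2 scaled reads in Control 1 to 4 and to 179, 51.1, 179 and 207 in CKD TRF 1 to 4. Adiponectin (Adipoq), which is made by fat cells, stood at 0, 0.461, 0 and 0.0913 scaled reads in the Control libraries and at 16.1, 0.0666, 9.84 and 20.2 in the CKD TRF libraries. CKD TRF 2 was the lowest library of its group in both. The 14 adipose markers, several of which the kidney also expresses, summed to 340.1, 393, 228 and 256 in Control and 339, 147, 369 and 567 in CKD TRF, so these sums overlapped. The 6 blood markers found in the files summed to 5934, 13525, 5216 and 4899 in Control and only 3883, 4411, 3079 and 2855 in CKD TRF. The 11 adrenal markers summed to at most 5.80 in any of these 8 libraries. Along the first principal component of all 12 libraries, which held 56.1% of the variance, Control lay from -58.1 to -42.5, CKD TRF from 16.9 to 20.6 and CKD from 23.9 to 37.4. The CKD TRF libraries thus lay far from Control on the side of CKD. Each was nearer to Control than any CKD library was. The component was computed on the values as deposited, and the sums of scaled reads followed the same order of groups. Whether the order on the component depends on these sums was not tested.

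Under restricted feeding, 5225 of 13943 tested genes (37.5%) differed from Control at an adjusted p under 0.05, with 2724 higher (19.5%) and 2501 lower (17.9%). The 2 directions were unlike in size: 931 genes rose by at least 1 on the log2 scale (6.68%), and 182 fell by at least 1 (1.31%). The 4 libraries of one group lay wholly above or below those of the other for 4450 genes (31.9%), 2271 higher (16.3%) and 2179 lower (15.6%). The median change over all tested genes was 0.01, with 0.25 in the tenth of genes with the lowest mean level and -0.22 in the tenth with the highest. The split depended on the scaling. With every library scaled to the same sum, 71.9% of the called genes were higher (3656 higher, 1431 lower) against 52.1% as deposited, and leaving Rn45s out of that sum gave 79.7% (4404 higher, 1125 lower). With libraries centred on their medians the share was 41.6% (2296 higher, 3227 lower). Equal sums moved the median change of all genes to 0.14 and, without Rn45s, to 0.21.

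**Figure D1:**
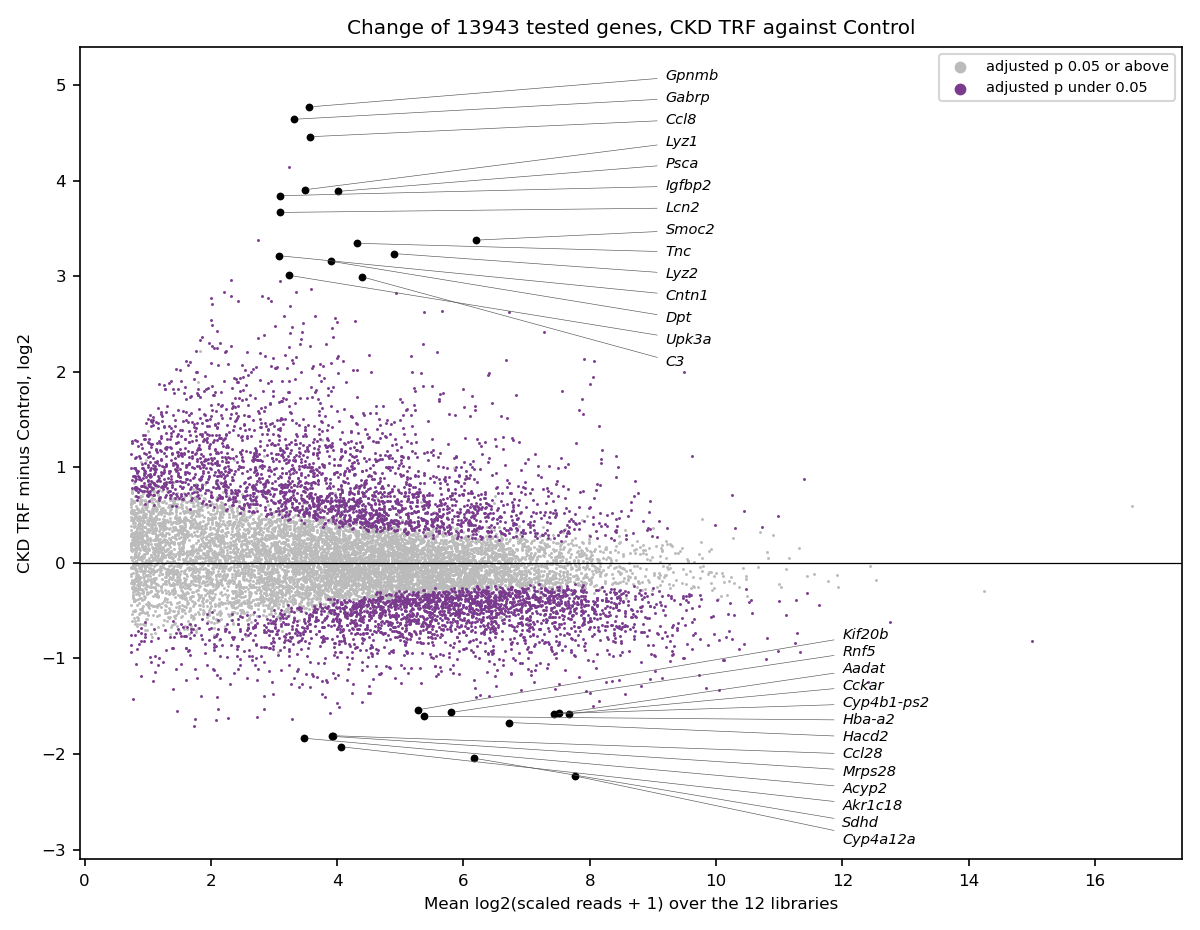
Difference between CKD TRF and Control on the log2 scale (vertical axis) against the mean log2 level over the 12 libraries (horizontal axis) for all tested genes, coloured where the adjusted p was under 0.05, with the 14 largest rises and 13 of the 14 largest falls of the naming rule in black. Gpnmb stands highest at 4.77 and Cyp4a12a lowest at -2.23, and rises reach farther from 0 than falls.

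The largest rises included genes of phagocytes, secreted matrix and stressed epithelium. Gpnmb, a glycoprotein of the membrane of lysosome-rich macrophages, led them. It lies at chr6:49036546-49070929 (mm10) and stood at 0.204, 0.276, 0.595 and 0.0913 scaled reads in Control 1 to 4 and at 31.02, 54.8, 26.04 and 29.95 in CKD TRF 1 to 4. The highest Control library was at 0.595 and the lowest CKD TRF library at 26.04, a change of 4.77 ± 0.20 (adjusted p = 2.5e-12). Gabrp, a subunit of GABA-A receptors found in epithelia, was at 0.204, 0, 0 and 0.0913 in Control and at 20.3, 31.4, 27.5 and 25.1 in CKD TRF, with every Control library under the limit of 3 reads (4.64 ± 0.17, adjusted p = 2.4e-13). The chemokine Ccl8 rose by 4.46 ± 0.25, the lysozymes Lyz1 and Lyz2 by 3.91 ± 0.21 and 3.24 ± 0.20, and complement component C3 by 2.99 ± 0.24. Lyz1 and Lyz2 are near-identical neighbours, so the split of reads between them is uncertain. Among matrix and secreted genes, Smoc2 rose by 3.38 ± 0.17, tenascin C (Tnc) by 3.35 ± 0.20, dermatopontin (Dpt) by 3.16 ± 0.21 and the insulin-like growth factor binding protein Igfbp2 by 3.84 ± 0.28. Lcn2, a secreted marker of tubule injury, rose by 3.67 ± 0.27, and Cntn1, a cell adhesion molecule best known in neurons, by 3.22 ± 0.26.

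Psca and Upk3a completed the 14 rises, and both are genes of urothelium. Psca was at 1.12, 7.28, 1.53 and 0.913 in Control and at 52.00, 15.97, 66.9 and 66.04 in CKD TRF, with the lowest CKD TRF value in CKD TRF 2 (3.89 ± 0.48). Upk3a, a uroplakin of the plaques on urothelial cells, was at 0.816, 2.67, 1.79 and 1.10 in Control and 31.1, 7.75, 18.4 and 29.2 in CKD TRF (3.01 ± 0.44). In both genes the library with the low urothelium sum, CKD TRF 2, was the lowest of its group and still above every Control library.

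The largest falls included enzymes and solute-handling genes of the tubule. Cyp4a12a, a cytochrome P450 that is raised by androgens and makes 20-HETE from arachidonic acid, fell most. Its values were 513, 548, 555 and 652 in Control and 129, 129.8, 115 and 106 in CKD TRF, a fall by 2.23 ± 0.22 (adjusted p = 3.0e-07), and its neighbour Cyp4a12b, which shares much of its sequence, fell by 1.29 ± 0.24. The steroid-metabolising aldo-keto reductase Akr1c18 fell by 1.92 ± 0.31, the P450 pseudogene Cyp4b1-ps2 by 1.58 ± 0.14, and Aadat, an aminotransferase of the kynurenine pathway, by 1.58 ± 0.13. Cckar, the receptor for cholecystokinin, was at 439.8, 412, 504 and 492 in Control and at 171, 163, 162 and 124 in CKD TRF, so the highest CKD TRF library was far below the lowest Control library (-1.58 ± 0.12). Ccl28, a chemokine of epithelia, fell by 1.81 ± 0.29 and Kif20b, a mitotic kinesin, by 1.54 ± 0.19.

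A set of 5 of the 14 falls shared an uneven pattern within Control. Sdhd, the membrane anchor of succinate dehydrogenase, was at 456, 98.7, 92.5 and 247 in Control 1 to 4 and at 34.7, 28.5, 46.5 and 71.96 in CKD TRF (-2.04 ± 0.36, adjusted p = 1.6e-04). Rnf5, a ubiquitin ligase of the endoplasmic reticulum, was at 281, 75.8, 72.01 and 124 in Control and 28.4, 35.6, 49.2 and 46.8 in CKD TRF (-1.56 ± 0.28). In both, Control 1 was highest and Control 4 next, while Control 2 and 3 lay closest to the CKD TRF libraries. The order was the same at the top for the mitochondrial ribosomal protein Mrps28 (55.1, 28.3, 22.4 and 41.5 in Control), the fatty acid elongation enzyme Hacd2 (347, 153, 188 and 272) and the acylphosphatase Acyp2 (42.2, 20.9, 16.2 and 23.4). All 5 were lower in every CKD TRF library than in any Control library. Without Control 1 the changes of Sdhd, Rnf5, Hacd2 and Acyp2 were -1.60, -1.15, -1.47 and -1.57. Hba-a2, an alpha globin of blood, fell by 1.61 ± 0.38 and is described with the blood markers.

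The 53 gene lists that describe these kidneys were set against the 19.5% of all tested genes that were higher and the 17.9% that were lower. Apart from the markers of urothelium and fat, the largest positive medians were those of macrophages, complement, matrix, cytokines, NADPH oxidases and injury. Apart from blood, the most negative were those of androgen-raised genes, proximal tubule enzymes and respiratory complex I. Many androgen-raised genes are also members of the proximal tubule lists. The lists are shown for CKD against Control as well. That comparison shares the Control libraries with the comparison of CKD TRF, so the 2 sets of values are not independent.

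**Figure D2:**
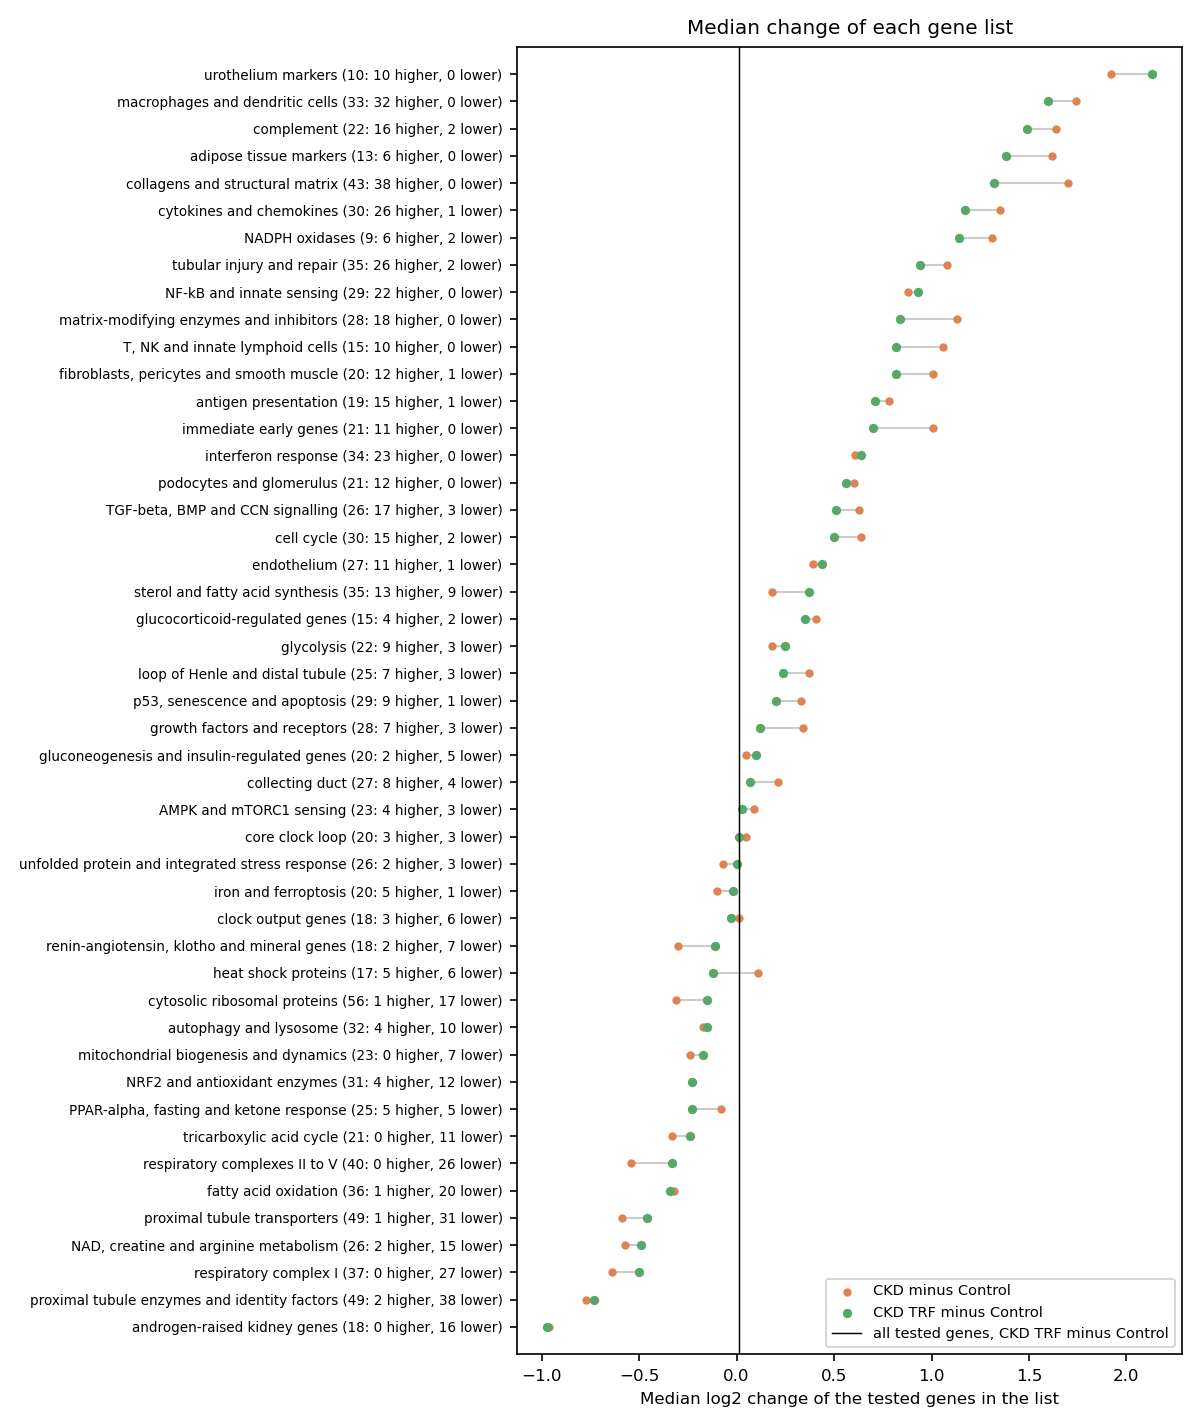
Median log2 change of the tested genes of 47 lists for CKD TRF minus Control (green) and CKD minus Control (orange), with the median of all tested genes as a line and, in the labels, the number of genes tested and the number called higher and lower in CKD TRF. Macrophages and dendritic cells stand at 1.60 in CKD TRF, collagens and structural matrix at 1.32, and proximal tubule enzymes at -0.73.

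Markers of tubule injury were higher than in Control. Of 35 tested genes of injury and repair, 26 were higher (74.3%) and 2 lower, with a median change of 0.94 against 0.01 for all tested genes. Havcr1, which encodes KIM-1, a phagocytic receptor that injured proximal tubule cells display, lies at chr11:46735080-46779578. It was at 1.63, 2.39, 0.340 and 0.639 scaled reads in Control and at 11.9, 21.2, 6.67 and 7.75 in CKD TRF. The groups did not overlap, and CKD TRF 2 was about as high as the CKD libraries, which were at 20.8, 19.5, 18.2 and 22.8. The change was 2.48 ± 0.30 (adjusted p = 2.6e-06), beside 3.34 for CKD. Lcn2 was at 1.33, 0, 0.681 and 0.365 in Control and 17.2, 11.1, 21.6 and 27.01 in CKD TRF (3.67 ± 0.27, adjusted p = 4.4e-09). Sox9, a transcription factor of repairing tubule cells, was at 3.16, 2.58, 5.87 and 7.12 in Control and 22.6, 24.7, 15.9 and 19.1 in CKD TRF, with every CKD TRF library above every Control library (1.99 ± 0.25). In a whole kidney, fewer cells of a type and less RNA per cell cannot be told apart, and the same holds for more cells and more RNA.

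The adhesion molecule Vcam1 rose by 2.17 ± 0.18 and the hyaluronan receptor Cd44 by 2.51 ± 0.19. The simple-epithelium keratin Krt19 was at 1.23, 1.20, 1.28 and 1.19 in Control and at 14.3, 10.6, 17.1 and 15.4 in CKD TRF, which were tight in Control and all several times higher in CKD TRF (2.77 ± 0.22); urothelium also expresses this keratin. Osteopontin (Spp1), already abundant in healthy tubules, was at 291, 147, 199 and 234 in Control and 369, 376, 414 and 558 in CKD TRF (1.00 ± 0.16, adjusted p = 5.6e-05). Without the libraries whose Adipoq exceeded 2 on the log2 scale, which left CKD TRF 2 as the only library of its arm, the change of Spp1 was 0.83 (adjusted p = 0.061). Members named as exceptions to their list, here and in the other groups, were chosen after their values were seen. In this list they were the integrin subunit Itgb6 at -0.61 and the brush border protein villin (Vil1) at -0.47, both lower. Fgb, Fga, Krt20, Hbegf, Pdgfb, S100a11 and Pax8 did not pass the test.

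Matrix genes formed one of the most uniform groups. Of 43 collagens and structural matrix genes, 38 were higher (88.4%) and none lower, with a median of 1.32, and the groups did not overlap for 38 of them. Col1a1, which encodes the main chain of fibrillar type I collagen, lies at chr11:94936224-94953042. It was at 14.6, 11.9, 12.8 and 11.7 scaled reads in Control and at 91.3, 80.1, 80.9 and 84.98 in CKD TRF (2.64 ± 0.13, adjusted p = 1.2e-11). The Control values were within a narrow range and so were the CKD TRF values, several times higher. Col3a1, of type III collagen, was at 28.2, 23.9, 29.5 and 29.2 in Control and 198, 191, 129 and 197 in CKD TRF, with CKD TRF 3 the lowest of its group (2.63 ± 0.12). Fibronectin (Fn1) was at 8.78, 7.74, 15.4 and 17.4 in Control and 55.6, 57.97, 44.5 and 42.6 in CKD TRF (2.00 ± 0.19). Tnc, a matrix glycoprotein laid down at sites of remodelling, was at 1.43, 4.05, 3.06 and 3.65 in Control and 35.9, 33.7, 41.3 and 44.8 in CKD TRF, and Smoc2, a matricellular calcium-binding protein, at 8.88, 14.8, 12.2 and 14.4 and 126, 202, 105 and 135. Neither gene's groups came near each other. The elastic fibre protein fibulin 1 (Fbln1) rose by 2.80 ± 0.18. Periostin (Postn) did not pass the test (0.61, adjusted p = 0.21), nor did Col4a2, Ogn, Lama2 and Lamc1.

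Of the enzymes that modify the matrix, proteases included, and their inhibitors, 18 of 28 rose (64.3%) with none lower and a median of 0.84. Lysyl oxidase (Lox), which cross-links collagen, rose by 2.41 ± 0.19, the gelatinase Mmp2 by 2.26 ± 0.24 and the metalloproteinase inhibitor Timp1 by 2.21 ± 0.25. Timp1 was at 0.612, 1.11, 0 and 0.457 in Control and 3.80, 6.96, 6.74 and 6.64 in CKD TRF, lowest in CKD TRF 1. Of 20 genes of fibroblasts, pericytes and smooth muscle, 12 rose (60%) and Ren1, renin, fell (-0.62). Smooth muscle actin (Acta2), which marks myofibroblasts and vessel walls, was at 34.1, 29.5, 27.5 and 18.6 in Control and 81.5, 87.8, 122 and 84.5 in CKD TRF (1.75 ± 0.17). The receptor Pdgfra, of interstitial fibroblasts, rose by 1.65 ± 0.14, Prrx1, a mesenchymal transcription factor, by 1.50 ± 0.21, and Gli1, a hedgehog target that marks perivascular cells, by 1.78 ± 0.26.

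In the TGF-beta, BMP and CCN group, 17 of 26 genes were higher (65.4%) and 3 lower. Ltbp2, a matrix protein related to those that hold latent TGF-beta, was at 0 in every Control library and at 5.08, 8.09, 4.77 and 5.85 in CKD TRF, a mean at least 19.4-fold higher than the largest limit of 3 reads in a Control library. Tgfbi, a matrix protein induced by TGF-beta, rose by 1.54 ± 0.16, and the activin subunits Inhba and Inhbb by 1.33 ± 0.28 and 1.22 ± 0.26. The lower members were Cyr61 (-0.84) and the bone morphogenetic proteins Bmp4 (-0.37) and Bmp7 (-0.45). With the mean log2 level of the tested fat and urothelium markers of each library as a covariate, 9 of the 26 were called higher. The median was then 0.44, beside 0.51 as deposited. With CKD TRF 2 as the only library of its arm, Inhba (1.35, adjusted p = 0.0618) and Inhbb (1.19, adjusted p = 0.11) did not pass.

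**Figure D3:**
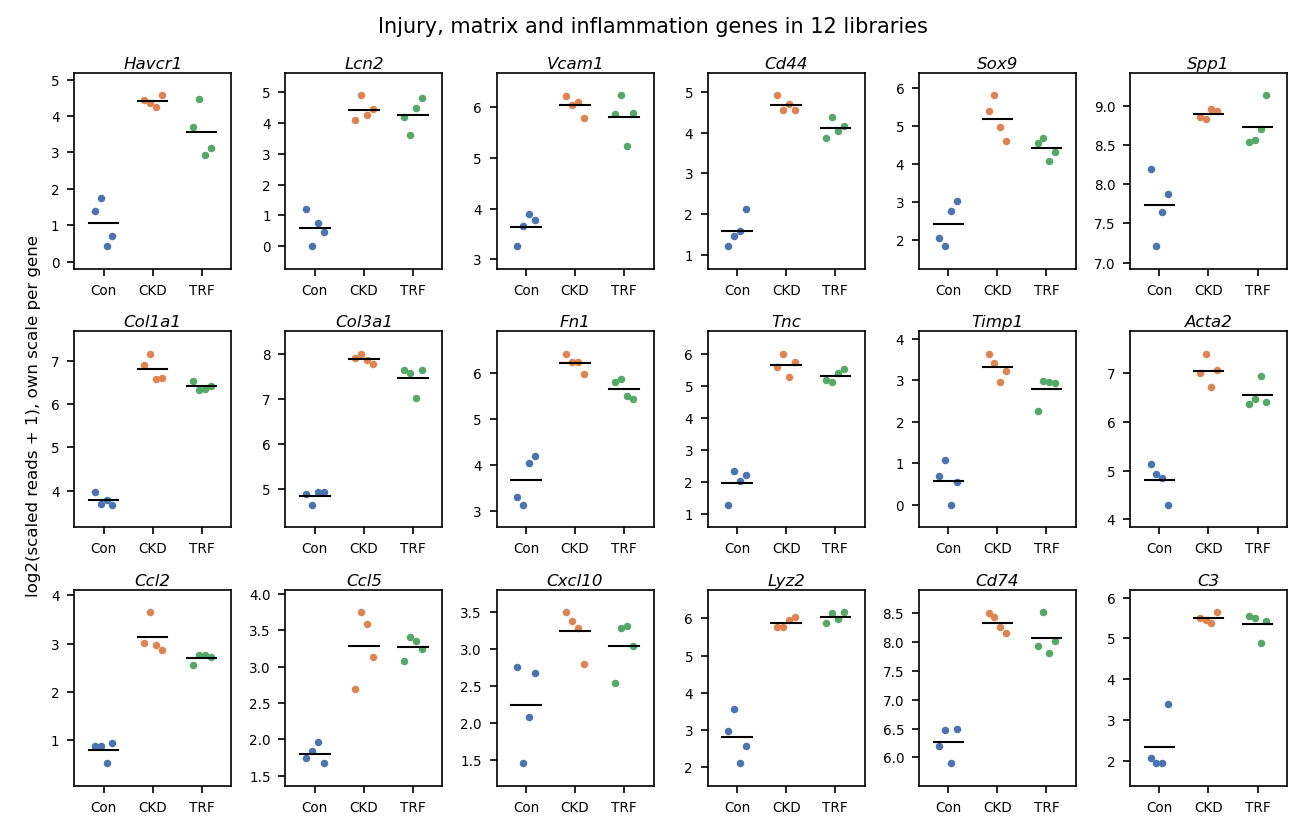
Levels of 6 injury genes, 6 matrix genes and 6 inflammation genes on the log2(scaled reads + 1) scale (vertical axes, own scale per gene) in each Control (Con), CKD and CKD TRF (TRF) library, with points for libraries and lines for group means. In each gene except Cxcl10 the CKD TRF points lie above all Control points, by 3.67 in Lcn2 and 2.64 in Col1a1 on average.

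Inflammatory genes were higher than in Control across several groups. Of 30 tested cytokines and chemokines, 26 were higher (86.7%), with a median of 1.17. Ccl2, which draws monocytes, lies at chr11:82035571-82037453 and was at 0.816, 0.829, 0.425 and 0.913 in Control and 4.87, 5.76, 5.78 and 5.65 in CKD TRF, low and close together in Control and several times higher in every CKD TRF library (1.91 ± 0.21, adjusted p = 1.0e-06). Ccl5, which draws T cells, was at 2.35, 2.58, 2.89 and 2.19 and 7.45, 9.61, 9.24 and 8.54 (1.47 ± 0.21). The macrophage chemokines Ccl6, Ccl8 and Ccl9 rose by 2.00, 4.46 and 2.07, and Tnfsf13b, the B cell survival factor BAFF, by 1.97 ± 0.25. The interferon-induced chemokine Cxcl10 was at 5.72, 1.75, 3.23 and 5.39 in Control and 4.80, 8.68, 8.82 and 7.23 in CKD TRF, so its groups overlapped (0.80 ± 0.26, adjusted p = 0.0215). Its call was lost with quantile normalization (0.54, adjusted p = 0.118), without Control 2 (0.54, adjusted p = 0.0839), without CKD TRF 2 (0.72, adjusted p = 0.0604) and without CKD TRF 3 (0.71, adjusted p = 0.0645). Ccl28 was the only one of the 30 to fall.

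Of 29 genes of NF-kB and innate sensing, 22 rose (75.9%) and none fell. They included Cd14, the coreceptor for lipopolysaccharide (1.71 ± 0.22), the RNA sensor Tlr7 (1.43 ± 0.36), the NF-kB subunit Relb (1.24 ± 0.24) and the NF-kB inhibitor and target Nfkbia (1.19 ± 0.18). In complement, 16 of 22 genes rose (72.7%), with a median of 1.49. C3, the protein on which all complement pathways meet, was at 3.27, 2.86, 2.89 and 9.50 in Control and 45.9, 44.6, 28.6 and 41.8 in CKD TRF, and Control 4 stood above the other Control libraries. The anaphylatoxin receptor C3ar1 was at 2.86, 3.23, 2.13 and 3.65 and 17.4, 30.02, 24.1 and 20.5 (2.59 ± 0.18), and C4b rose by 2.34 ± 0.26, though reads of C4b and its near copy C4a may be shared. Adipsin (Cfd), also a product of fat cells, was at 0.102, 0.829, 0 and 0.274 in Control and 46.9, 0.265, 46.2 and 86.00 in CKD TRF, with CKD TRF 2 at the level of Control. Its change was 4.14 ± 1.12. Complement factor Cfb (-0.56) and the regulator Cd55 (-0.68) fell.

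Interferon-response genes rose in 23 of 34 cases (67.6%) with a median of 0.64. Ifi27l2a rose by 1.62 ± 0.15, Rtp4 by 1.38 ± 0.20, tetherin (Bst2), which holds budding virus at the membrane, by 1.17 ± 0.23, and Irf8, a transcription factor of myeloid cells, by 1.17 ± 0.17. With the fat and urothelium covariate 13 of them were called higher, and the median was 0.66. In antigen presentation 15 of 19 genes rose (78.9%). Cd74, the invariant chain of MHC class II, was at 72.2, 87.6, 58.5 and 89.5 in Control and 244, 363, 222 and 257 in CKD TRF (1.80 ± 0.14, adjusted p = 1.6e-08). All 4 CKD TRF libraries were at or above 222 and the highest Control library was at 89.5. The class II gene H2-Eb1 rose by 1.60 ± 0.15 and the class II-processing protease cathepsin S (Ctss) by 2.12 ± 0.13. H2-T23, a nonclassical class I gene, was the one lower member (-1.32 ± 0.29).

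Macrophage and dendritic cell genes had the highest share of rises among the immune lists, with 32 of 33 higher (97%), none lower and a median of 1.60. Lyz2, the lysozyme of macrophages, was at 6.84, 10.8, 3.32 and 4.93 in Control and 57.7, 69.5, 62.3 and 70.6 in CKD TRF (3.24 ± 0.20, adjusted p = 5.8e-10). The CKD libraries, at 53.5, 53.3, 60.8 and 64.2, overlapped with those of CKD TRF. Clec4n, the fungal receptor dectin-2, was at 0, 0.276, 0 and 0.0913 in Control and at 5.66, 8.35, 4.77 and 3.42 in CKD TRF. The efferocytosis receptor Mertk was the one member that did not pass (-0.57, adjusted p = 0.0626). With CKD TRF 2 as the only library of its arm, 29 of the 33 were higher. Of 15 lymphocyte genes that were tested, of 24 listed, 10 rose (66.7%), among them the interleukin 7 receptor Il7r (2.30 ± 0.20), Cd4 (1.82 ± 0.22), the T cell kinase Lck (1.48 ± 0.27) and the T cell receptor chain Cd3d (1.24 ± 0.25). Their levels were low, with Cd4 at 2.87, 2.78, 2.62 and 3.81 in CKD TRF. Of 8 B cell genes found in the files 4 were high enough to test, and of 11 neutrophil genes 2 were. In CKD TRF 0 of these 4 and 0 of these 2 were called. CKD against Control had 3 of the 4 B cell genes higher and 0 of the 2 neutrophil genes.

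Many genes of the proximal tubule were below Control. Of 49 transporters, 31 were lower (63.3%) and 1 was higher, the efflux pump Abcc4 (0.74), with a median of -0.46. The organic anion transporter Slc22a6 (OAT1), which takes up drugs and uremic solutes from blood, lies at chr19:8618039-8628299. It was at 1381, 1106, 1092 and 1090.4 scaled reads in Control and 706, 785, 781 and 525 in CKD TRF (-0.75 ± 0.13, adjusted p = 1.1e-04). Control 1 was the highest of its group, and the highest CKD TRF library was still below every Control library. Slc22a8 (OAT3) was at 635, 478, 649 and 557 in Control and 379, 361, 337 and 402 in CKD TRF (-0.64 ± 0.10). The amino acid carrier Slc7a13 fell by 1.33 ± 0.13, the phosphate carrier Slc34a3 by 1.23 ± 0.25, and the organic anion carriers Slco4c1 and Slc22a19 by 1.53 ± 0.28 and 1.36 ± 0.23. The main phosphate carrier Slc34a1 was at 3067, 2781, 3314 and 3171 in Control and 2729.6, 3427, 2313 and 2818 in CKD TRF, with overlapping groups (-0.14 ± 0.13, adjusted p = 0.417). The endocytic receptor megalin (Lrp2) was at 1054, 802, 1972 and 1903 and 1161, 1242, 1109 and 1302, spread in Control over more than the whole range of CKD TRF (-0.15 ± 0.20, adjusted p = 0.592).

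Enzymes and identity factors of the proximal tubule fell in 38 of 49 cases (77.6%), with a median of -0.73. Hnf4a, the transcription factor that maintains proximal tubule identity, was at 515, 458, 551 and 521 in Control and 264, 256, 259 and 269 in CKD TRF (-0.96 ± 0.10, adjusted p = 2.8e-07). The CKD TRF libraries lay within a narrow band, far below the lowest Control library. Gatm, which makes the precursor of creatine, fell by 0.97 ± 0.21. The members that rose were the transcription factor Cebpd (0.79) and the fatty acid hydroxylase Cyp4a14 (2.83 ± 0.43), which was at 13.8, 6.54, 3.15 and 4.11 in Control and 61.9, 42.02, 42.6 and 49.8 in CKD TRF. Under quantile normalization Slc22a6 changed by -0.44 and 25 transporters and 31 enzymes were lower. With CKD TRF 2 as the only library of its arm, the median was -0.42 for transporters and -0.74 for enzymes. Slc22a6 then changed by -0.56.

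Segments beyond the proximal tubule were mixed. In the loop of Henle and distal tubule, 7 of 25 genes were higher and 3 lower, or 28% and 12%, beside 19.5% and 17.9% of all genes. Equal sums without Rn45s gave 15 higher and 2 lower. The median was 0.24 as deposited and 0.28 with CKD TRF 2 as the only library of its arm. Uromodulin (Umod), the most abundant protein of urine and a product of the thick ascending limb, was at 894, 790.3, 1549 and 1376 in Control and 1600.3, 1634, 1776 and 1462 in CKD TRF, with overlap (0.54 ± 0.16, adjusted p = 0.0123). Control 1 and 2 were low and Control 3 and 4 near the CKD TRF level, and without Control 1 the change was 0.44 (adjusted p = 0.0512). The tight junction protein Cldn16 rose by 0.80 ± 0.17, the secreted BMP and Wnt antagonist Sostdc1 by 0.75 ± 0.13 and the calcium buffer Calb1 by 0.63 ± 0.13, while tissue kallikrein Klk1 fell by 0.99 ± 0.12. The thiazide-sensitive cotransporter Slc12a3 was at 124, 132, 212 and 155 in Control and 171, 212, 198 and 183 in CKD TRF (0.32 ± 0.14, adjusted p = 0.0709). It passed the test with equal sums (0.47, adjusted p = 0.0182), with quantile normalization (0.49, adjusted p = 0.00929) and without Control 3 (0.48, adjusted p = 0.00306). Epidermal growth factor (Egf) was at 281, 218, 494 and 557 in Control and 395, 299, 364 and 362 in CKD TRF and did not pass (-0.03 ± 0.20, adjusted p = 0.926).

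In the collecting duct 8 of 27 genes were higher (29.6%) and 4 lower, with a median of 0.07. The balance depended on the scaling, with 5 higher and 5 lower after median centring and 12 and 1 with equal sums. With the fat and urothelium covariate 4 were higher and 2 lower. Aquaporin 2 (Aqp2), the vasopressin-regulated water channel, was at 118, 141, 146 and 127 in Control and 346, 202, 641 and 527 in CKD TRF (1.56 ± 0.29, adjusted p = 3.4e-04). CKD TRF 2, the library with the low urothelium sum, was the lowest of its group, and the other 3 were well above it. With the fat and urothelium covariate the change was 0.58 (adjusted p = 0.0373), and with CKD TRF 2 as the only library of its arm it was 0.60 (adjusted p = 0.0762). Kit, a receptor kinase, rose by 1.23 ± 0.19, and the sodium channel subunit Scnn1g fell by 1.12 ± 0.25. Podocyte and glomerular genes were higher in 12 of 21 cases (57.1%) and lower in none, among them the transcription factors Tcf21 (1.35 ± 0.15) and Gata3 (1.00 ± 0.15, or 0.65 with the covariate) and the phosphatase Ptpro (1.22 ± 0.22). Tcf21 is also expressed by stromal cells and Gata3 by the collecting duct and T cells. Endothelial genes were higher in 11 of 27 cases (40.7%), with a median of 0.44. With the covariate 4 were called higher, and the median was 0.19. Pdpn, of lymphatic endothelium and also of podocytes, was at 9.50, 10.3, 9.95 and 10.5 in Control and 30.8, 33.9, 31.8 and 30.6 in CKD TRF (1.57 ± 0.12), and Igfbp3, a growth factor binding protein, was lower (-0.92 ± 0.10).

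**Figure D4:**
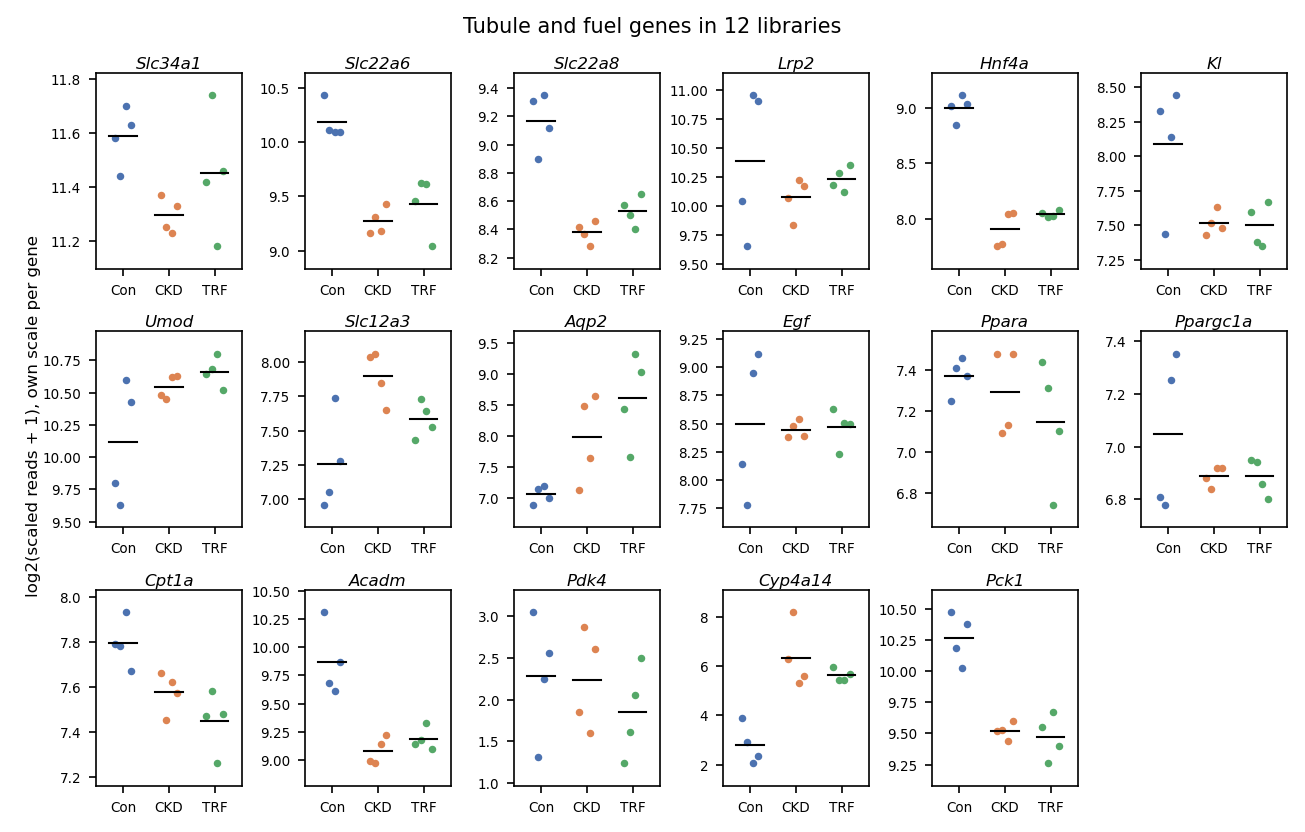
Levels of 10 tubule genes and 7 genes of mitochondria and fuel use on the log2(scaled reads + 1) scale (vertical axes, own scale per gene) in each Control (Con), CKD and CKD TRF (TRF) library, with points for libraries and lines for group means. Hnf4a and Slc22a8 lie below all Control points in CKD TRF (changes of -0.96 and -0.64), while Slc34a1, Lrp2 and Egf overlap.

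Many genes of mitochondrial fuel use were lower. Of 37 subunit genes of respiratory complex I, which feeds electrons from NADH into the chain, 27 fell (73%) and none rose, with a median of -0.50. Ndufb3 was at 933, 737, 826 and 830.2 in Control and 335, 276, 366 and 390.3 in CKD TRF, so every CKD TRF library was under the lowest Control library by a wide gap (-1.29 ± 0.11, adjusted p = 5.1e-08). Ndufa4 fell by 0.96 ± 0.16, Ndufa1 by 0.93 ± 0.12 and Ndufv3 by 0.82 ± 0.12. In complexes II to V, 26 of 40 fell (65%), led by Sdhd and followed by the cytochrome oxidase subunits Cox7c (-0.95 ± 0.16) and Cox7b (-0.86 ± 0.13) and the ATP synthase subunit Atp5j (-0.86 ± 0.14). In the tricarboxylic acid cycle and pyruvate entry, 11 of 21 fell (52.4%), including malate dehydrogenase Mdh1 (-0.86 ± 0.12), the pyruvate dehydrogenase component Pdhx (-0.76 ± 0.12), Dlst (-0.75 ± 0.09) and Idh3b (-0.68 ± 0.13).

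These falls depended in part on the scaling. With equal sums 21 complex I genes, 17 of complexes II to V and 7 of the cycle were lower, and with quantile normalization 17, 12 and 7, where 2, 2 and 4 were higher. The quantile median of the cycle was 0.02, on the other side of 0, while that of complex I stayed below 0 at -0.26. For complexes II to V the quantile median was -0.04, beside -0.33 as deposited, and equal sums without Rn45s gave -0.12. Cox7c and Cox7b changed by -0.61 and -0.52 and Mdh1 by -0.51 under quantile normalization, all still past the threshold. For CKD against the same Control libraries the medians were -0.64 for complex I and -0.54 for complexes II to V. Among genes of mitochondrial biogenesis, 7 of 23 fell (30.4%), such as the deacetylase Sirt3 (-0.64 ± 0.12) and the mitochondrial transcription factors Tfb1m (-0.86 ± 0.22) and Tfam (-0.42 ± 0.13). Of these 23, 3 were higher and 2 lower with equal sums, and 4 and 2 with equal sums without Rn45s, so the balance turned under both of these scalings. Tfam did not pass with equal sums (-0.28, adjusted p = 0.0939) or without Control 1 (-0.36, adjusted p = 0.0597). The coactivator Ppargc1a, a regulator of mitochondrial biogenesis counted in the fasting list, was at 111, 109, 151 and 162 in Control and 123, 122, 115 and 110.4 in CKD TRF and did not pass (-0.16 ± 0.11, adjusted p = 0.287).

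Fatty acid oxidation genes fell in 20 of 36 cases (55.6%), with a median of -0.34. With equal sums without Rn45s 11 were lower and 5 higher (median -0.13), and with quantile normalization 13 and 2 (median -0.10). With CKD TRF 2 as the only library of its arm the median was -0.28. Medium-chain acyl-CoA dehydrogenase (Acadm) was at 1265, 818, 782 and 933 in Control and 564, 579, 644 and 549 in CKD TRF (-0.68 ± 0.13, adjusted p = 3.0e-04), without overlap. Cpt1a, the carnitine transferase that admits long-chain fatty acids into mitochondria, was at 220.0, 219, 243 and 203 and 176, 189.9, 153 and 178 (-0.34 ± 0.09, adjusted p = 0.00641). Its call was lost with equal sums (-0.20, adjusted p = 0.121), with quantile normalization (-0.14, adjusted p = 0.263) and with the covariate (-0.24, adjusted p = 0.169). The fatty acid transporter Slc27a2 fell by 0.79 ± 0.12 and Acad11 by 0.84 ± 0.16. The peroxisomal enzyme Ehhadh was at 164, 24.8, 25.8 and 46.5 in Control and 15.4, 16.3, 25.4 and 24.4 in CKD TRF, and its fall by 1.21 ± 0.38 was -0.62 without Control 1, the library that was high. The fatty acid binding protein Fabp1 was the one member that rose (0.98 ± 0.33, adjusted p = 0.0252), and it did not pass with quantile normalization (0.64, adjusted p = 0.151), without Control 2 (0.91, adjusted p = 0.0567), without Control 3 (0.81, adjusted p = 0.0776), without CKD TRF 2 (0.83, adjusted p = 0.082) or without CKD TRF 3 (0.84, adjusted p = 0.0825).

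The fasting and ketone list moved in both directions, with 5 of 25 higher and 5 lower, near the shares of all genes. Acat1, which joins or splits acetoacetyl-CoA, fell by 1.17 ± 0.12. The receptor Ppara was at 152, 169, 176 and 165 in Control and 173, 157, 106 and 136 in CKD TRF (-0.23 ± 0.13, adjusted p = 0.179), and the pyruvate dehydrogenase kinase Pdk4, a common marker of fasting, at 7.25, 1.47, 3.74 and 4.84 and 1.36, 2.05, 3.16 and 4.66 (-0.43 ± 0.35, adjusted p = 0.35). Neither passed, and both overlapped. Pck1, the control enzyme of gluconeogenesis, was at 1413, 1159.9, 1039 and 1334 in Control and 748, 610.0, 811 and 676 in CKD TRF (-0.80 ± 0.11, adjusted p = 1.8e-05), with -0.44 under quantile normalization. The fructose bisphosphatase Fbp2 fell by 0.93 ± 0.13, and insulin-like growth factor 1 (Igf1) was at 17.3 ± 2.82 scaled reads (SD, n = 4) in Control and 48.03 ± 4.22 in CKD TRF (1.43 ± 0.14). In that list 2 of 20 rose and 5 fell, and Crtc2, a coactivator of CREB, was at 24.00, 2.76, 1.79 and 7.49 in Control and 1.00, 0.597, 2.32 and 3.42 in CKD TRF. Its change of -1.39 ± 0.49 (adjusted p = 0.0297) did not pass without Control 1, the highest library (-0.77, adjusted p = 0.147).

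Glycolysis genes were higher in 9 of 22 cases (40.9%) and lower in 3. Hexokinase 2 (Hk2) was at 1.74, 1.93, 0.340 and 0.913 in Control and 7.24, 5.37, 5.84 and 7.75 in CKD TRF (1.81 ± 0.27), phosphofructokinase Pfkp rose by 0.97 ± 0.15 and the aldolase Aldoc by 0.74 ± 0.16. Sterol and fatty acid synthesis split into 13 higher and 9 lower of 35. The desaturases Scd1 and Scd2 rose by 1.75 ± 0.20 and 1.63 ± 0.20. Fatty acid synthase (Fasn), which fat cells also express, rose by 1.53 ± 0.34 but did not pass with the covariate of fat and urothelium markers (0.42, adjusted p = 0.214), where Scd1 changed by 1.07.

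Among stress pathways, NRF2 and antioxidant genes were lower in 12 of 31 cases (38.7%) and higher in 4. The peroxiredoxin Prdx5 was at 1371, 1498, 1038 and 1109.5 in Control and 579.8, 519.6, 822 and 609 in CKD TRF (-0.99 ± 0.15) and superoxide dismutase Sod1 fell by 0.85 ± 0.11, or -0.63 and -0.51 under quantile normalization. That list had 6 lower and 6 higher with equal sums. The cystine carrier Slc7a11 was at 0, 0, 0.340 and 0 in Control and 1.15, 2.05, 1.31 and 1.91 in CKD TRF, and heme oxygenase Hmox1 rose by 0.58 ± 0.17 (adjusted p = 0.0123), which did not pass with quantile normalization (0.45, adjusted p = 0.0514). Of the 9 NADPH oxidase genes, 6 rose, among them the phagocyte subunits Cybb (1.80 ± 0.14), Ncf1 (1.66 ± 0.18) and Rac2 (1.46 ± 0.21), while Nox4, the oxidase of tubule cells (-0.66), and Cyba, its membrane partner (-0.45), fell. In autophagy and lysosome genes 4 of 32 rose and 10 fell, or 5 and 4 with equal sums; the lysosomal hexosaminidase Hexa rose by 0.88 ± 0.12, the cholesterol exporter Npc1 by 0.82 ± 0.15, and Mcoln1 and Atg12 fell by 0.91 ± 0.20 and 0.50 ± 0.11. Among nutrient sensors, which restricted feeding is known to act on, 4 of 23 rose and 3 fell. Mtor, the kinase of both mTOR complexes, was at 99.8, 110.2, 164 and 159 in Control and 79.3, 61.99, 65.7 and 68.4 in CKD TRF (-0.91 ± 0.14, adjusted p = 3.6e-05), whereas Rictor, a subunit of the second complex, was at 17.6, 15.01, 20.9 and 22.9 and 40.5, 41.96, 36.5 and 38.6 (1.02 ± 0.13, adjusted p = 5.8e-06). Neither gene's groups overlapped.

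Unfolded protein genes were called rarely, 2 higher and 3 lower of 26. Heat shock genes moved both ways (5 higher and 6 lower of 17), with the small heat shock proteins Hspb8 (1.57 ± 0.16) and Hspb1 (1.26 ± 0.14) among the rises. The near-identical Hspa1a and Hspa1b were lowest in CKD TRF 2 among the CKD TRF libraries, and their calls were lost with the covariate (0.48, adjusted p = 0.318, and 0.52, adjusted p = 0.264). Without CKD TRF 1, Hspa1a changed by 0.74 (adjusted p = 0.0546). Cell cycle genes were higher in 15 of 30 cases (50%), for instance topoisomerase Top2a, at 2.25, 5.53, 4.68 and 4.48 in Control and 11.2, 12.1, 8.40 and 12.8 in CKD TRF (1.24 ± 0.20), and the tubulin Tubb5 (1.27 ± 0.10). Of 29 genes of p53, senescence and apoptosis, 9 rose (31%) and 1 fell, with a median of 0.2. With the covariate 3 were called higher and 1 lower (median 0.07), and with quantile normalization 6 and 2 (median 0.03). The cell cycle inhibitor Cdkn1a (p21) was at 13.99, 18.8, 13.9 and 13.5 in Control and 38.2, 23.3, 30.3 and 32.8 in CKD TRF (0.99 ± 0.15), Cdkn2b rose by 1.64 ± 0.24, and Cdkn2a was at 0, 0, 0 and 0.0913 in Control and 2.36, 1.46, 1.31 and 0.920 in CKD TRF. Immediate early genes were higher in 11 of 21 cases (52.4%), with a median of 0.7. With the covariate 3 were called higher, and the median was 0.61. Fosl2 rose by 1.12 ± 0.13 in that list, and Junb was at 11.7, 68.6, 11.1 and 13.2 in Control, where Control 2 stood above all CKD TRF libraries (48.7, 48.5, 46.1 and 41.7). Its change of 1.25 ± 0.39 did not pass without Control 1 (1.04, adjusted p = 0.0619) or without Control 3 (1.02, adjusted p = 0.0539).

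Genes of the kidney's endocrine and mineral functions fell more often than they rose, 7 of 18 (38.9%) against 2. Klotho (Kl), the coreceptor for the phosphate hormone FGF23, lies at chr5:150952607-150993817 and was at 322, 172, 281 and 345 in Control and 193, 166, 162 and 203 in CKD TRF (-0.59 ± 0.15, adjusted p = 0.00501). Control 2 was as low as the CKD TRF libraries and the other 3 were above them. Its call was lost with quantile normalization (-0.37, adjusted p = 0.0537), with equal sums without Rn45s (-0.37, adjusted p = 0.0662) and with CKD TRF 2 as the only library of its arm (-0.70, adjusted p = 0.127). The parathyroid hormone receptor Pth1r was at 832, 741, 819 and 704 in Control and 508, 448, 491 and 413 in CKD TRF (-0.74 ± 0.10, adjusted p = 1.1e-05), or -0.40 with quantile normalization. Angiotensin converting enzyme (Ace) fell by 0.66 ± 0.14. Of the 18 genes that androgens raise in mouse kidney, 16 fell (88.9%) and none rose, with a median of -0.97. Most of these 18 are also members of the proximal tubule lists, so their falls are not a separate result. Besides Cyp4a12a and Slc7a13, the organic anion carrier Slco1a1 fell by 1.22 ± 0.15 and ornithine decarboxylase (Odc1) by 1.13 ± 0.13. Odc1 was at 936, 932, 918 and 1134 in Control and 468, 443, 566 and 335 in CKD TRF, with no overlap. Genes of NAD, creatine and arginine metabolism fell in 15 of 26 cases (57.7%), among them the kynurenine enzymes Haao (-1.07 ± 0.13) and Kmo (-1.06 ± 0.11).

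In the iron list 5 of 20 rose (25%), and the iron carrier transferrin (Trf) and the ferroxidase ceruloplasmin (Cp) were higher by 1.83 ± 0.17 and 1.28 ± 0.15. Among growth factors and receptors, 7 of 28 rose and 3 fell. Wnt4, a ligand of kidney development, was at 0.307, 2.49, 1.28 and 1.10 in Control and 11.7, 8.02, 20.8 and 16.1 in CKD TRF (2.74 ± 0.32). Besides Wnt4 and Igf1, Wnt7b, a ligand of the ureteric tree, rose by 1.72 ± 0.28, or 1.10 with the fat and urothelium covariate. Cytosolic ribosomal protein genes were lower in 17 of 56 cases (30.4%) as deposited, but 8 were lower and 6 higher with equal sums, and 5 and 11 with quantile normalization, so the balance of directions turned under quantile normalization. The glucocorticoid list had 4 of 15 higher and 2 lower. Fkbp5, a cochaperone that glucocorticoids induce, was at 56.7, 56.5, 89.1 and 79.8 in Control and 55.9, 41.9, 43.5 and 35.7 in CKD TRF (-0.65 ± 0.15, adjusted p = 0.00215). Sgk1, a kinase of sodium transport that aldosterone and glucocorticoids induce, was at 36.04, 44.3, 38.3 and 49.4 and 104, 64.4, 97.5 and 113 (1.14 ± 0.16, adjusted p = 2.3e-05), lowest in CKD TRF 2 among the CKD TRF libraries and 0.71 with the covariate. Tsc22d3 (GILZ) rose by 0.72 ± 0.18, which did not pass with the covariate (0.47, adjusted p = 0.128).

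Clock genes are the group on which restricted feeding is known to act, and the hour of sampling is not given, so a shift of phase and a change of level cannot be told apart. Of 20 core clock genes 3 were higher (15%) and 3 lower (15%), with a median of 0.01. Of 18 output genes 3 were higher (16.7%) and 6 lower (33.3%), with a median of -0.03. Over all tested genes 19.5% were higher and 17.9% lower, so the core clock list was called no more often than genes at large. Sequences before the start sites of Tef, which fell, and Cry1, which rose, are shown because both hold the E-box CACGTG, the letters that the ARNTL and CLOCK pair binds, although the genes moved in opposite directions. They are the RefSeq promoter sequences of GRCm38.p6, read 5′ to 3′ on the gene's strand, with the E-box in capitals. The Tef stretch (chr15:81811264-81811413, plus strand) ends just before one of its start sites, and the Cry1 stretch (chr10:85185065-85185204, minus strand) ends 10 bases before its start site, where the annotated exon begins.
Tef: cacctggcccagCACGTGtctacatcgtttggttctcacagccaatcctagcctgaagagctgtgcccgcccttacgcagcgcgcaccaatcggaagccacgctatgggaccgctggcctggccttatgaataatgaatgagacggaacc
Cry1: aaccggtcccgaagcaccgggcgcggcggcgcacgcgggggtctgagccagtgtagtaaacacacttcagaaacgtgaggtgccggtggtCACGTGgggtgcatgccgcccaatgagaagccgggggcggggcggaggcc
The E-box begins 138 bases before the start in Tef and 60 before it in Cry1. It reads the same on both strands. Windows of 300 bases, 250 before and 50 after a start, held it in 7.15% of 32851 cases over all genes. Of the 41 clock genes listed, 33 had windows, 45 in number, and 8 of these genes had a window with it. A share of windows and a count of genes are unlike measures. A match of letters is a description and no evidence of binding.

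Arntl, which encodes the activator BMAL1, lies at chr7:113207465-113314126 and was at 8.99, 6.63, 11.5 and 9.41 scaled reads in Control and 12.5, 13.9, 15.9 and 15.2 in CKD TRF (0.62 ± 0.17, adjusted p = 0.00612). Every CKD TRF library was above every Control library, by a narrow gap. The repressor Cry1, whose promoter stretch holds the E-box, was at 2.66, 4.14, 3.57 and 2.74 and 6.09, 9.35, 8.04 and 6.64, also without overlap (0.99 ± 0.19, adjusted p = 4.5e-04). The output factors that bind D-box sites were lower. Dbp was at 25.2, 47.4, 14.7 and 22.01 in Control and 14.6, 5.30, 9.90 and 8.61 in CKD TRF (-1.37 ± 0.32, adjusted p = 0.00207), Tef at 179, 253, 229 and 198 and 118, 93.03, 91.1 and 91.7 (-1.11 ± 0.14, adjusted p = 4.2e-06), and Hlf at 152, 158, 139 and 155 and 85.04, 103, 96.9 and 105 (-0.63 ± 0.10, adjusted p = 7.1e-05). In Dbp the highest CKD TRF library came close to the lowest Control library, and in Tef and Hlf the groups were well apart. Nfil3, the repressor of the same sites, was at 3.27, 1.75, 7.15 and 10.1 and 6.80, 12.6, 12.3 and 10.4, with overlap (0.98 ± 0.31, adjusted p = 0.0184).

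The repressors Nr1d1 and Nr1d2 (REV-ERB alpha and beta) were both lower, and in both CKD TRF 1 stood apart at the level of Control. Nr1d1 was at 30.7, 31.2, 39.7 and 31.2 in Control and 32.2, 20.6, 19.9 and 18.1 in CKD TRF (-0.56 ± 0.17, adjusted p = 0.0161), and Nr1d2 at 75.9, 82.8, 81.2 and 81.8 and 76.5, 41.7, 43.9 and 47.03 (-0.65 ± 0.15, adjusted p = 0.00201). CKD TRF 1 was also the highest of its group in Per1, at 5.41, 8.20, 6.63 and 5.48 in Control and 23.1, 4.70, 10.7 and 7.62 in CKD TRF, in Per2, at 2.86, 8.11, 9.53 and 9.04 and 11.5, 8.61, 6.08 and 6.70, in Dbp and in Tef. It was the lowest of its group in Arntl, Cry1 and Nfil3. The Per genes did not pass (0.56 ± 0.31, 0.20 ± 0.33 and -0.32 ± 0.33 for Per1, Per2 and Per3, adjusted p = 0.166, 0.662 and 0.473), although Per1 did without CKD TRF 2 (0.87, adjusted p = 0.0253). Clock (0.00 ± 0.11), Npas2 (0.27 ± 0.23), Cry2 (-0.13 ± 0.21) and Bhlhe41 (0.10 ± 0.26) also overlapped and did not pass. Csnk1e, a kinase that marks PER proteins, rose by 1.37 ± 0.19. The repressor Ciart was too low to test, at 0.204, 3.59, 0.765 and 0.730 in Control and 0.0718, 0.0666, 0.119 and 0.263 in CKD TRF.

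Some clock calls depended on single libraries or the scaling. The call for Nr1d1 was lost with equal sums (-0.42, adjusted p = 0.0798), with the covariate (-0.51, adjusted p = 0.118), without Control 3 (-0.47, adjusted p = 0.0524) and without CKD TRF 4 (-0.47, adjusted p = 0.0602). That for Nfil3 was lost without Control 1 (0.84, adjusted p = 0.0636), Control 2 (0.63, adjusted p = 0.074), CKD TRF 2 (0.89, adjusted p = 0.052) or CKD TRF 3 (0.90, adjusted p = 0.0532). With CKD TRF 2 as the only library of its arm, Arntl (0.58, adjusted p = 0.257) and Hlf (-0.55, adjusted p = 0.0688) did not pass. CKD against the same Control libraries gave 0.55 for Arntl, 0.88 for Cry1, -1.48 for Dbp, -1.03 for Tef and -0.68 for Nr1d1.

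**Figure D5:**
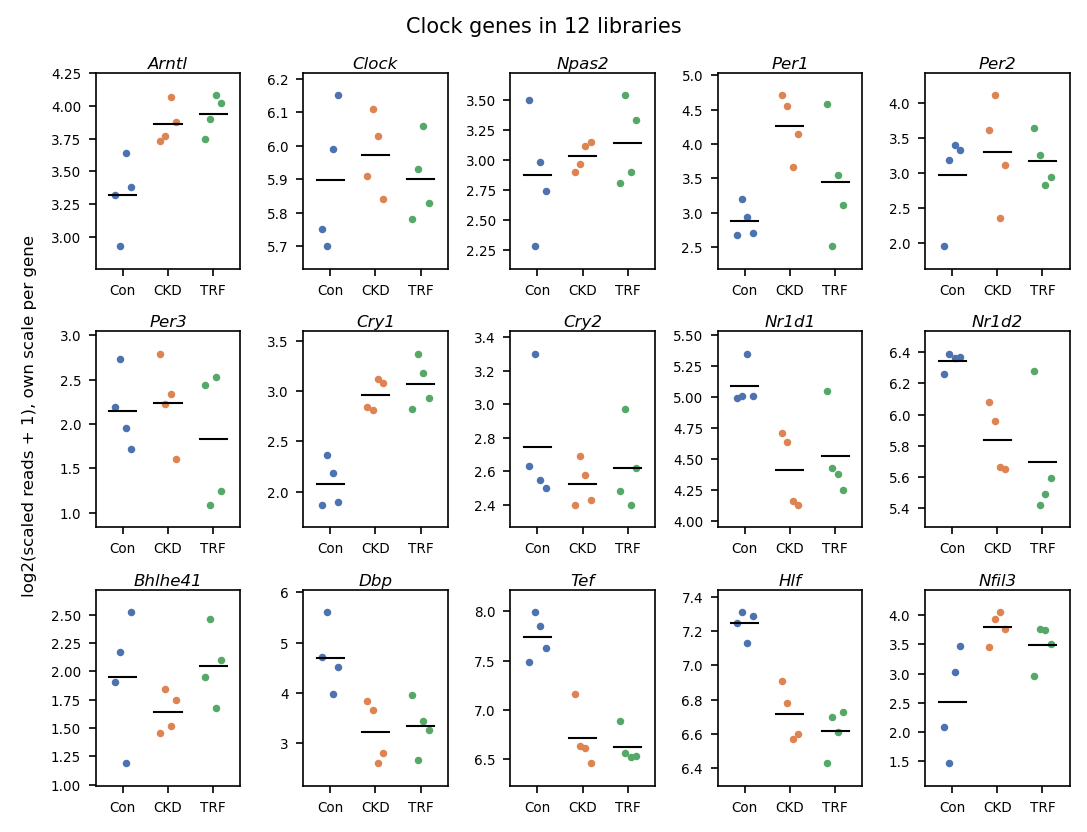
Levels of 15 clock genes on the log2(scaled reads + 1) scale (vertical axes, own scale per gene) in each Control (Con), CKD and CKD TRF (TRF) library, with points for libraries and lines for group means. Dbp, Tef and Hlf are lower in all CKD TRF libraries than in any Control library (changes of -1.37, -1.11 and -0.63), Arntl and Cry1 are higher (0.62 and 0.99), and Per2, Cry2 and Clock overlap.

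Markers that need not belong to kidney tissue differed too. All 10 tested urothelium markers rose, with a median of 2.13. Keratin 15 (Krt15) was at 0.715, 0.553, 0.510 and 0 in Control and 6.59, 7.89, 9.06 and 12.9 in CKD TRF (2.80 ± 0.32), where CKD TRF 2 was not the lowest library. The cornified envelope protein Sprr1a was at 1.12, 1.11, 1.62 and 1.00 and 13.3, 2.39, 17.2 and 17.3, lowest in CKD TRF 2. Of 13 adipose markers 6 rose, and Adipoq (2.84 ± 0.89) and the brown fat uncoupling protein Ucp1 (2.33 ± 0.91) were at or near 0 in CKD TRF 2. The globins Hba-a2, Hbb-bs and Hbb-bt, which red blood cells carry, fell by 1.61 ± 0.38, 1.02 ± 0.23 and 1.36 ± 0.24, and Control 2 was the highest library for all 3 (Hba-a2 at 109, 298, 73.9 and 64.8 in Control and 37.7, 36.5, 41.5 and 29.6 in CKD TRF). The liver protein albumin (Alb) was at 7.86, 9.49, 9.61 and 12.8 in Control and 13.3, 43.3, 35.8 and 10.8 in CKD TRF, high in CKD TRF 2 and 3. Its change of 1.09 ± 0.35 did not pass without either of these libraries (0.77, adjusted p = 0.0928, and 0.86, adjusted p = 0.0839). The part of fat and urothelium in the other differences was not tested beyond the fits with a covariate and without libraries.

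Beside the difference from Control, no gene differed between CKD TRF and CKD at an adjusted p under 0.05 in limma (0 of 13943, 0%), where the smallest adjusted p was 0.705, and voom on the recovered reads gave 0 as well. At an unadjusted p under 0.05 there were 890 genes (6.38%) in limma and 1065 with voom. CKD against Control gave 6333 called genes (45.4%), 3297 higher (23.6%) and 3036 lower (21.8%). The 2 comparisons with Control share its 4 libraries, so their counts are given side by side only. The matrix list had a median of 1.32 in CKD TRF and 1.70 in CKD, injury 0.94 and 1.08, macrophages 1.60 and 1.74, proximal tubule enzymes -0.73 and -0.77, and complexes II to V -0.33 and -0.54. For Havcr1 the difference between CKD TRF and CKD was -0.85 ± 0.30 (adjusted p = 0.705) and for Smoc2 -0.61 ± 0.17 (adjusted p = 0.705). Smoc2 stood at 197, 243, 219 and 189 in CKD and 126, 202, 105 and 135 in CKD TRF, which overlapped in CKD TRF 2. A p that misses the threshold does not show that the 2 diseased groups were alike.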

How the data were processed

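The 12 libraries were made from 500 ng of RNA each. Reads were mapped with Bowtie2 to mm10 and handled with bedtools, per the submitters' processing notes, which give no versions; how counts were scaled is not given in the sources used here. The deposited values are log2 values per gene, and their steps gave back whole reads plus a pseudocount of 1 (98.2 to 100% of low values whole within 0.1 of a read). Of 23282 entries, the one with the highest mean was kept for each of 23238 symbols. Genes in the upper 60% by mean (13943) were tested with limma 3.58.1 in R 4.3.3 (mean per group over all 12 libraries, eBayes with a trend, Benjamini-Hochberg adjustment, threshold 0.05). Genes were named by rule: the 14 highest and 14 lowest called changes with no overlap and a higher-group mean of at least 4 (log2), a set of key genes, and up to 4 called members with the largest change per list; the fourth part, on differences from CKD, found none. A few genes that this rule names are not reported here. The members and lists were chosen with earlier results of these data known. Data were simulated over 13943 genes, with 100, 50 and 50 genes changed by 0.5, 1 and 2 (log2). Of these, 17%, 70% and 100% were recovered, with 6 false among 108 calls. A far smaller share was changed than the 37.5% of genes called in the data. These recovery rates therefore do not describe the reported calls. Alternatives were other scalings, filters, pseudocounts, voom on recovered reads, a covariate, a replicate block and leaving out libraries. Gene positions are from GENCODE M21. Reads of near-identical copies (Lyz1 and Lyz2, Cyp4a12a and Cyp4a12b, the globins, class II genes, Hspa1a and Hspa1b) may be split unevenly, and use of strand in counting is not given in the sources used here. Python 3.11.15 and pandas 2.3.3 were used for summaries.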

Additional observations from a re-analysis of the deposited data

Results flagged for a closer look

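In 11 of the 156 groups of 4 libraries tested, over 78 genes, 1 library stood apart from the other 3 by Dixon's test, which flags about 1 group in 20 by chance. Values are log2(scaled reads + 1). For the growth factor binding protein Igfbp2, CKD TRF 2 was low at 3.28, with the others at 4.55 to 4.66. For complement C3, Control 4 was high at 3.39, with the others at 1.95 to 2.09. For the cholecystokinin receptor Cckar, CKD TRF 4 was low at 6.96, with the others at 7.35 to 7.42. For the collagen Col3a1, CKD TRF 3 was low at 7.02, with the others at 7.58 to 7.64. For the protease inhibitor Timp1, CKD TRF 1 was low at 2.26, with the others at 2.93 to 2.99. For the chemokine Ccl2, CKD TRF 1 was low at 2.55, with the others at 2.73 to 2.76. For the transporter Slc22a6, Control 1 was high at 10.43, with the others at 10.09 to 10.11. For the clock gene Per2, Control 1 was low at 1.95, with the others at 3.19 to 3.40. For the clock gene Cry2, Control 2 was high at 3.30, with the others at 2.50 to 2.63. For the clock gene Nr1d1, Control 3 was high at 5.35, with the others at 4.99 to 5.01. For the clock output gene Tef, CKD TRF 1 was high at 6.89, with the others at 6.52 to 6.56.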

How the results depend on the processing

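Against 5225 called genes (2724 higher, 2501 lower), equal sums gave 1431 lower, and equal sums without Rn45s 4404 higher and 1125 lower. The stricter filter on low values gave 1686 higher among 9295 tested genes. With the mean log2 level of the fat and urothelium markers as a covariate 3333 genes were called (1759 higher, 1574 lower), and without libraries with Adipoq above 2 on the log2 scale, which left CKD TRF 2 alone in its arm and assumed to vary like the others, 1478 (804 higher, 674 lower). The last setting and the Adipoq covariate were chosen after seeing the data. Leaving out 1 library at a time gave 4396 to 5150 calls. For CKD TRF against CKD, 1 gene was called with no filter, and leaving out 1 library gave 0 to 1. Of the 228 named genes, 145 kept their side of the threshold in all 30 settings. A change of sign was counted only where either fit passed the threshold, and the values so counted were those of fat markers. Genes called in neither fit also changed sign. With quantile normalization Slc34a1 (0.14), Lrp2 (0.16) and Egf (0.22) were examples, all below 0 as deposited. Cfd, Cidec, Adipoq and Ucp1 are part of the covariate, and Adipoq also chose the libraries left out, so the fits with that covariate and without those libraries are no test of these genes, and Adipoq adjusted for itself is 0 by construction. With the Adipoq covariate Cidec changed by -0.41, Adipoq by -0.00 and Ucp1 by -0.47. With the fat and urothelium covariate Cfd changed by -0.025, Cidec by -0.88, Adipoq by -0.50 and Ucp1 by -1.05. Without the libraries with Adipoq above 2, Cfd changed by -0.001, Cidec by -0.18, Adipoq by -0.075 and Ucp1 by -0.11. Apart from the loss of libraries or genes that a setting itself brings, the cause was not tested. Libraries with the same number did not deviate together (correlations of -0.118, -0.043, -0.0494 and -0.0162), so the numbers do not pair them, and a fit with the replicate number as a block called 5033 genes (2661 higher, 2372 lower). Depth limits genes near 3 reads, where Control libraries, with fewer reads, hold more zeros.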
